A study of Homo sapiens with 6 samples.

Results

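The vascular endothelial growth factor (VEGF) family was examined as 10 genes of the 58735 in the deposited count table, chosen by gene name. They are 5 ligands (VEGFA, VEGFB, VEGFC, VEGFD and PGF), 3 receptor tyrosine kinases (FLT1, KDR and FLT4) and 2 neuropilin coreceptors (NRP1 and NRP2). Each name occurred as a protein-coding gene. RNA was sequenced after poly(A) capture from SKOV3ip1 cells, a single human ovarian adenocarcinoma line derived from SKOV3, labelled as wild type. Cells in culture received 2 µg of control siRNA or BARD1 siRNA with a lipid reagent and were kept for 48 h, with 3 biological replicates per group and 6 libraries in all. The tissue label speaks of tumors, whereas titles and protocols describe cultured cells. The series asks how loss of BARD1, the RING-domain partner of BRCA1, acts on pathways of tumour angiogenesis. All groups are this 1 cell line without a host, so that neither endothelial cells nor secreted protein were measured, and siRNA sequences were not analysed here.

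VEGF ligands are secreted dimers that bind receptor tyrosine kinases, which are known mainly from endothelial cells. VEGFA binds FLT1 (VEGF receptor 1) and KDR (VEGF receptor 2), VEGFB and placental growth factor (PGF) bind FLT1, and VEGFC and VEGFD bind FLT4 (VEGF receptor 3) and, once cleaved, KDR. Neuropilins have no kinase activity. They bind VEGF isoforms and class 3 semaphorins and pair with VEGF receptors or plexins. Ovarian carcinoma cells are a known source of VEGFA, the growth factor of ascites and tumour vessels.

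Libraries held 16621108 to 17743404 counts, and the targeted gene BARD1 was 5.98-fold lower with BARD1 siRNA, at 805, 644 and 887 counts with control siRNA against 96, 110 and 169 with BARD1 siRNA (edgeR quasi-likelihood adjusted p = 1.21e-15). Of 15 endothelial markers 10 stayed under 1 CPM (counts-per-million, normalised) in every library. Summed by group, control siRNA first, PECAM1 had 6 and 5 counts, CDH5 0 and 4, VWF 1 and 3 and TEK 3 and 0, while EMCN and CLEC14A had none. TIE1 had 26 and 52, ROBO4 9 and 21, ECSCR 29 and 46 and MMRN2 253 and 249. Going the other way, ESAM had 20 and 9, CLDN5 16 and 4 and ERG 17 and 9. The summed level of that list was 58.4 to 84.2 CPM with control siRNA and 66.8 to 72.9 CPM with BARD1 siRNA, mostly from SOX17, and 0 of its 4 tested members were called by edgeR, DESeq2 or limma-voom. At an unadjusted edgeR p under 0.05 there was 1, SOX18, at 5.23 CPM with control siRNA and 3.51 CPM with BARD1 siRNA. Among 9 leukocyte markers PTPRC, CD68, CD3E and TYROBP had no count. Of 12 markers of ovarian carcinoma epithelium, KRT8 and ERBB2 stood at 1232 and 2100 CPM with control siRNA. Others were scarce: with control siRNA first, MUC16 had 12 and 13 counts, CDH1 38 and 17 and WFDC2 71 and 77. Of 11 tested 2 were higher and 5 lower, with CD24 among the lower ones. Because the cultures were measured in bulk, fewer cells with an RNA and less of it per cell cannot be told apart.

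Of the 10 genes, 7 had enough counts to test. The ligands VEGFA and VEGFC were higher with BARD1 siRNA, and NRP2 was slightly higher. NRP1 and FLT4 were lower. VEGFB and KDR were not called. Thus 5 of 7 were called at an adjusted p under 0.05, 3 higher and 2 lower, in a comparison where 42.3% of all 15271 tested genes were called, 22% being higher and 20.3% lower. The same 5 genes had no overlap between the groups, which held for 50.4% of all tested genes. With shares this large in the background, the count of called genes alone says little about the family, and the sizes are given below. Only VEGFA passed the threshold with a change of at least 2-fold, as did 4.48% of tested genes in the upward direction.

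**Figure D1:**
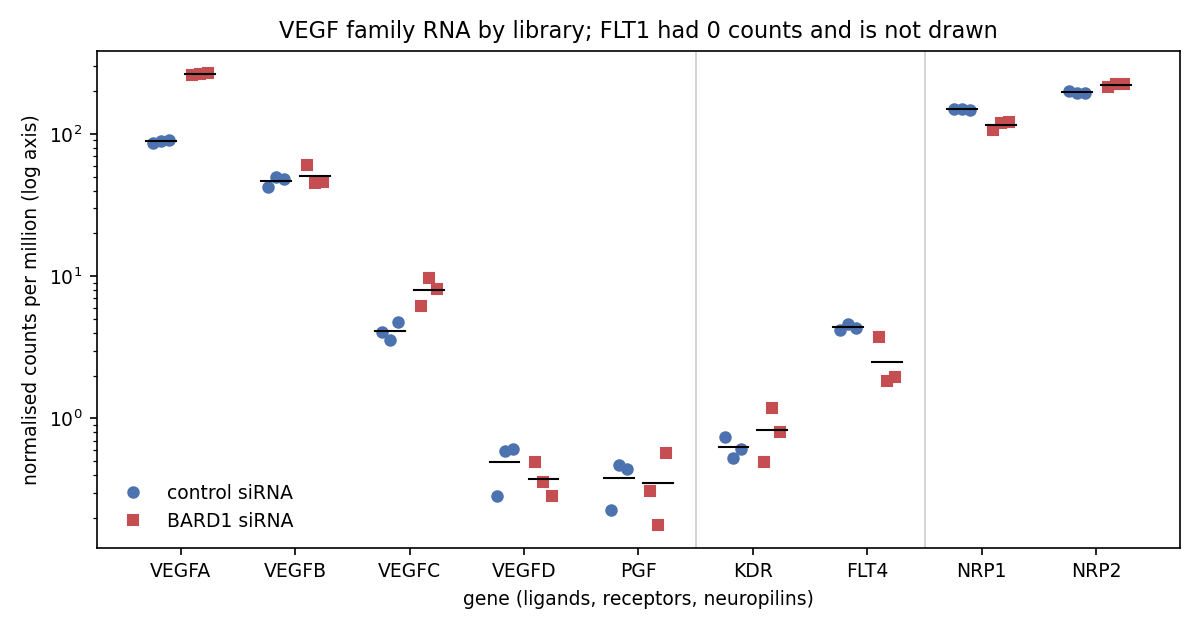
Normalised CPM on a log axis for 9 VEGF family genes, with 1 point per library (circles, control siRNA; squares, BARD1 siRNA) and a line at each mean. The VEGFA points of BARD1 siRNA lie between 261 and 267 and those of control siRNA between 86.1 and 90.8, while VEGFB, VEGFD, PGF and KDR overlap between the groups.

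VEGFA (ENSG00000112715, GRCh38 chromosome 6, 43770184 to 43786487, plus strand), the main growth factor of endothelial cells, was the family's largest change. It stood at 86.1, 89.8 and 90.8 CPM with control siRNA and at 261, 265 and 267 CPM with BARD1 siRNA. The libraries of each group lay close together and far from the other group. The fold was 2.97 (log2 fold change 1.57, 95% interval 1.46 to 1.68, edgeR adjusted p = 1.97e-30). By log2 fold change it ranked 329 of 15271 tested genes from the highest, and 2.72% of them changed more in either direction. Across scaling factors, tools, filters and left-out libraries the log2 fold change of VEGFA ran from 1.51 to 1.58. Gene counts do not separate its isoforms, of which GENCODE 29 lists 26 as protein-coding transcripts, so that the balance of heparin-binding and freely diffusing VEGFA was not measured.

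Among 12786 other protein-coding genes tested, 3 had log2 CPM profiles over the 6 libraries closest to that of VEGFA once each was centred on its own mean. They were KLF6, a zinc finger transcription factor, at a root mean square distance of 0.0266, PHLDA1 at 0.0283 and PDIA4, a protein disulfide isomerase of the endoplasmic reticulum, at 0.0431 on the log2 scale. The median distance of all genes was 0.808. The 3 were picked for the smallest distances, so that they lie below the median by selection, as do the nearest profiles given further on. Profiles span both groups, so that close ones tend to share the size and direction of the change. KLF6 rose by 1.60, PHLDA1 by 1.61 and PDIA4 by 1.55 on the log2 scale.

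The 3′ untranslated region of the longest coding VEGFA transcript, VEGFA-205, carries AU-rich elements, a class of sequence at which proteins such as ZFP36 bind mRNA and promote its decay. It is 1925 bases long and holds the pentamer ATTTA 10 times on the sense strand, against a median of 4 in 2404 genes whose region has a length within 20% of it. It also holds the nonamer TTATTTATT, which contains the pentamer, 1 time, 1734 bases after the stop codon. Of regions of like length 8.86% hold it, and no other family member did. The 30 bases around it are shown, in DNA letters with the nonamer in capitals, because ZFP36 and ZFP36L1, whose proteins bind such elements, were among the larger changes of the pathway lists.
VEGFA: ttgttatcatTTATTTATTggtgctactgt
The regions of the other ligands are shorter, and held the pentamer 1 time in VEGFC, 0 times in VEGFB and 2 times each in VEGFD and PGF, where regions of like length had medians of 0, 0, 1 and 1. NRP1 and NRP2 held 5 each, where regions of like length had medians of 5 and 6. Among the receptors FLT1 held 9, KDR 4 and FLT4 2, where regions of like length had medians of 6, 3 and 3. A match describes letters and shows no binding.

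VEGFC (ENSG00000150630, chromosome 4, 176683538 to 176792727, minus strand), the ligand of lymphatic vessel growth, was measured at 4.04, 3.58 and 4.77 CPM with control siRNA. It stood at 6.15, 9.71 and 8.16 CPM with BARD1 siRNA. All BARD1 siRNA libraries were higher, with replicate 1 the closest to the controls. VEGFC rose 1.94-fold (log2 fold change 0.95, 95% interval 0.54 to 1.37, edgeR adjusted p = 0.000126) from 71, 61 and 86 counts to 100, 164 and 142. At this depth its interval is wide, and the log2 fold change ran from 0.79 to 1.11 across the alternatives. GLIPR1, ACVR1 and PRELID3A had the profiles nearest to VEGFC, at distances of 0.145 to 0.150 against a median of 0.552. ACVR1, a type I receptor of bone morphogenetic proteins, rose by 0.80 on the log2 scale.

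VEGFB (ENSG00000173511, chromosome 11, 64234538 to 64238793, plus strand), a ligand linked to lipid uptake and cell survival more than to vessel growth, was not called. Its levels were 42.4, 49.7 and 47.9 CPM with control siRNA and 60.3, 45.5 and 45.7 CPM with BARD1 siRNA. BARD1 siRNA replicate 1 was above the other 5 libraries, which mixed. The log2 fold change was 0.11, with a 95% interval of −0.07 to 0.30 (edgeR adjusted p = 0.350), and −0.037 without that library. Its upper bound lies below the lower bounds of VEGFA and VEGFC, and the difference between the genes was not tested.

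VEGFD and PGF were too low to test. The control siRNA libraries had 5, 10 and 11 VEGFD counts, against 8, 6 and 5 with BARD1 siRNA, a ratio of 0.761 after scaling, with an exact 95% interval of 0.398 to 1.43. PGF had 4, 8 and 8 counts against 5, 3 and 10, a ratio of 0.937 with an interval of 0.467 to 1.87. These intervals cover counting error only, and no difference was detectable for these 2 ligands at this depth.

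Promoter windows were matched for 7 of the 10 genes in RefSeq promoters (GRCh38.p14). VEGFA, FLT4 and NRP1 were not matched. The 250 bases before the RefSeq start are shown for VEGFC and NRP2, which were higher, and for KDR, which was not called, 5′ to 3′ on the gene's strand. Capitals mark 4 motifs searched on both strands: GGGCGG (GC box), TGANTCA (AP-1), ACGTG (hypoxia response core) and TGACG (core of a cyclic AMP response element). TGACG and ACGTG can share letters. The VEGFC sequence lies at chr4:176792923-176793172 (minus strand), that of NRP2 at chr2:205682251-205682500 (plus strand) and that of KDR at chr4:55125596-55125845 (minus strand). RefSeq starts can differ from those of the deposited table: the NRP2 window lies inside the table's span for the gene, which begins with an earlier transcript, and ends at the start of NRP2-204.
VEGFC: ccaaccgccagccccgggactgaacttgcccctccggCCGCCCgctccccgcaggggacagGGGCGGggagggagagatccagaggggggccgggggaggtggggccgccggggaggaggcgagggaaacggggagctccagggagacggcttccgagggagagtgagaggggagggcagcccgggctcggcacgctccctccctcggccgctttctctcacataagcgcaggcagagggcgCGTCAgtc
NRP2: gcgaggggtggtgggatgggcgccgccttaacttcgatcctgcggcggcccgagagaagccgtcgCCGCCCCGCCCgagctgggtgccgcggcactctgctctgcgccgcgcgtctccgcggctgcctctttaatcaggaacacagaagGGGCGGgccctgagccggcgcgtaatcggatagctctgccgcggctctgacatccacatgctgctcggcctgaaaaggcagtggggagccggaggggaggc
KDR: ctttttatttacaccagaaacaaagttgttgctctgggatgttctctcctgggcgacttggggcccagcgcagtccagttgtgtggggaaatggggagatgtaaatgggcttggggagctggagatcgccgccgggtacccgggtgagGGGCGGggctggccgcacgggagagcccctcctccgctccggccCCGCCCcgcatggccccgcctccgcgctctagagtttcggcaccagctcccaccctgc
The GC box occurred 2 times in VEGFC, 3 times in NRP2 and 2 times in KDR, and 42.6% of 35116 promoter windows of this length hold it. TGACG occurred once, in VEGFC, and 21.2% of windows hold it. No match to TGANTCA or ACGTG was found in the 3 windows, against 6.57% and 18.5% of all windows. Of the matched windows not shown, that of VEGFB, not called, held the GC box 6 times and that of VEGFD held TGANTCA 1 time. TGACG occurred 2 times in the first PGF window, at separate places. In the FLT1 window its 2 matches lie on opposite strands of a single stretch, TGACGTCA. The GC content of the 3 windows shown was 74.0% in VEGFC, 70.0% in NRP2 and 65.2% in KDR. These windows show letters only, and no binding was measured.

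Levels of different ligands can be compared only per length, and here the length decides the answer. The table's length equals the union of all annotated exons for 58724 of the 58735 genes. For VEGFA that union is 14431 bases, 4.08 times its longest coding transcript of 3535 bases, but for VEGFB it is 1545 against 1380 bases. Per kilobase of exon union, VEGFA stood at 6.16 ± 0.171 and VEGFB at 30.2 ± 2.49 CPM per kilobase with control siRNA (SD, n = 3). With BARD1 siRNA the values were 18.3 ± 0.212 and 32.7 ± 5.48, and VEGFB was above VEGFA in every library. Per kilobase of the longest coding transcript, an alternative chosen after seeing the data, VEGFB was above VEGFA in the control siRNA libraries, at 30.7 to 36.0 against 24.4 to 25.7. In the BARD1 siRNA libraries this order was turned, with VEGFA at 73.8 to 75.5 and VEGFB at 33.0 to 43.7.

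The make-up of the ligand RNA moved towards VEGFA by either length. By exon union, the VEGFA share of the 5 ligands was 16.9%, 15.5% and 15.9% with control siRNA, against 30.2%, 35.3% and 35.8% with BARD1 siRNA, a gain of 17.7 percentage points. The groups did not overlap, and the exact two-sided permutation test gave p = 0.1, the smallest p that 3 against 3 libraries allow. By the longest coding transcript the share went from 41.0% ± 1.37 to 64.8% ± 3.21 (SD, n = 3). Shares and ratios of this kind are formed within a library and do not depend on scaling factors. The VEGFC share was 4.46% ± 0.691 with control siRNA and 6.16% ± 1.76 with BARD1 siRNA by exon union (exact permutation p = 0.3), and 3.27% and 3.38% by transcript, since VEGFA rose by more. The summed ligand level was 1.42-fold higher by exon union and 1.88-fold higher by transcript, the groups again not overlapping.

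**Figure D2:**
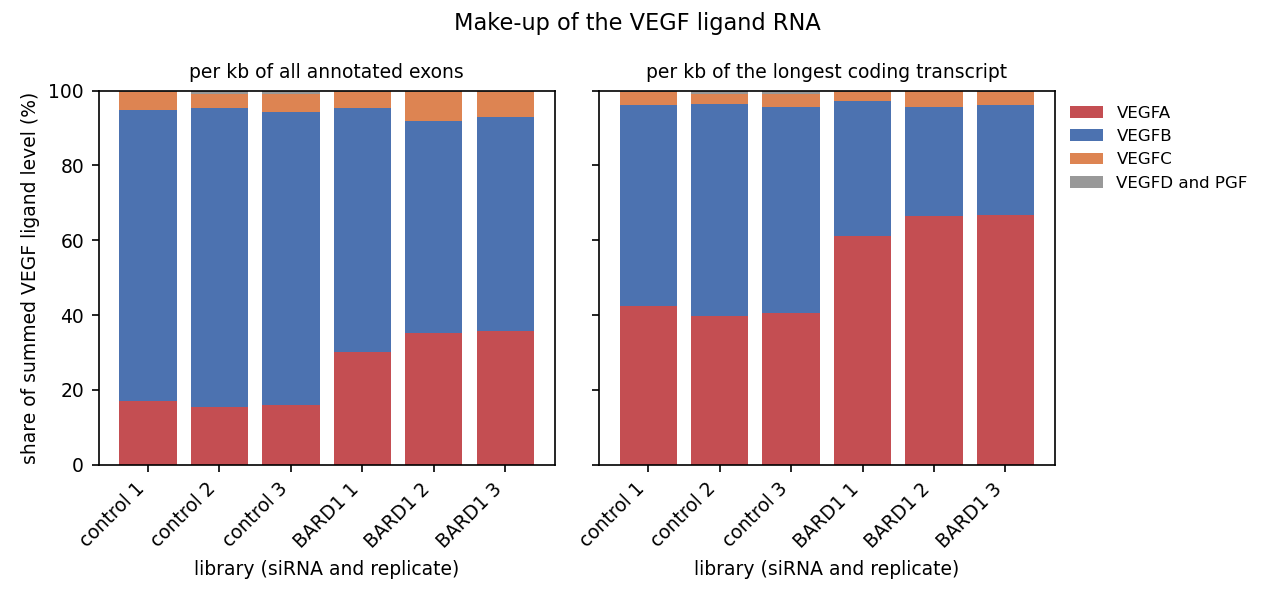
Share of each ligand in the summed VEGF ligand level of a library in percent, with levels per kilobase of all annotated exons (left) or of the longest coding transcript (right). VEGFA takes 15.5% to 16.9% of the left bars with control siRNA and 30.2% to 35.8% with BARD1 siRNA; VEGFD and PGF are too small to see.

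Receptor RNA was scarce in these cells. FLT1 had 0 counts in every library, which leaves room for 3 counts per group, or 0.0570 CPM with control siRNA and 0.0594 CPM with BARD1 siRNA. KDR (ENSG00000128052, chromosome 4, 55078259 to 55125595, minus strand), the main signalling receptor of VEGFA, had 13, 9 and 11 counts with control siRNA, against 8, 20 and 14 with BARD1 siRNA. The groups overlapped, and the 95% interval of its log2 fold change, −0.68 to 1.48, covers a fall, no change and a rise as large as that of VEGFC (edgeR adjusted p = 0.591).

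FLT4 (ENSG00000037280, chromosome 5, 180601506 to 180649624, minus strand), the receptor of VEGFC and VEGFD, was the most abundant of the 3 receptors. Its counts were 73, 79 and 78 with control siRNA, against 61, 31 and 34 with BARD1 siRNA. Replicate 1 of BARD1 siRNA lay near the controls and the other replicates well below them, without overlap between the groups. FLT4 fell 1.74-fold, from 4.37 ± 0.245 to 2.51 ± 1.08 CPM (SD, n = 3; log2 fold change −0.80, 95% interval −1.35 to −0.26, edgeR adjusted p = 0.0139). The call rested on single libraries. Without BARD1 siRNA replicate 2 the log2 fold change was −0.62 (edgeR adjusted p = 0.0949), without replicate 3 it was −0.65 (edgeR adjusted p = 0.0840), and without replicate 1 it was −1.21 (edgeR adjusted p = 0.00102). Nearest in profile to FLT4 were AC073111.5 at a distance of 0.136, RAB30, a small GTPase of the Golgi, at 0.138 and FLRT2 at 0.149, against a median of 0.572.

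The neuropilins went in opposite directions. NRP1 (ENSG00000099250, chromosome 10, 33177492 to 33336262, minus strand), the coreceptor of VEGFA and SEMA3A, stood at 151, 151 and 147 CPM with control siRNA. With BARD1 siRNA it stood at 107, 119 and 120.5 CPM, all below the controls. NRP1 fell 1.30-fold (log2 fold change −0.38, 95% interval −0.49 to −0.26, edgeR adjusted p = 2.99e-07), and by 0.33 to 0.44 on the log2 scale across all alternatives.

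NRP2 (ENSG00000118257, chromosome 2, 205681990 to 205798133, plus strand), the coreceptor of VEGFC and SEMA3F, stood at 202, 195 and 195 CPM with control siRNA and at 214, 224 and 224 CPM with BARD1 siRNA. The groups did not overlap, by a small margin. NRP2 rose by 0.16 on the log2 scale (95% interval 0.06 to 0.26, edgeR adjusted p = 0.00925), and 68.3% of tested genes changed more. The call was lost with upper-quartile factors, at 0.09 (edgeR adjusted p = 0.129), and with library size alone, at 0.10 (edgeR adjusted p = 0.106). It was also lost without BARD1 siRNA replicate 2, at 0.15 (edgeR adjusted p = 0.0552), or 3, at 0.15 (edgeR adjusted p = 0.0510). The antisense gene AC007362.1 within NRP2 gathered 9 counts in the control group and 39 in the BARD1 siRNA group, 0.0867% and 0.350% of those of NRP2, and strand was not stated for the counting. Genes overlapping other family members held at most 1 count.

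The ratio of the neuropilins needs no scaling factor. Per kilobase of exon union, NRP1 over NRP2 was 0.901, 0.935 and 0.908 with control siRNA, against 0.601, 0.640 and 0.649 with BARD1 siRNA. The log2 ratio fell by 0.54, the groups did not overlap, and the exact two-sided permutation test gave p = 0.1, the smallest possible. The change in this ratio is the same with any gene length, and without single libraries it was −0.56 to −0.50. The sum of the pair, which does depend on the scaling factor, moved little, from 27.2 ± 0.415 to 25.9 ± 1.06 CPM per kilobase (SD, n = 3). The groups did not overlap, at 26.8 to 27.6 with control siRNA against 24.7 to 26.6 with BARD1 siRNA (exact permutation p = 0.1, the smallest possible). Nearest in profile to NRP1 were CSRP2 at 0.0240, TRIM69 at 0.0261 and CSTF2 at 0.0267, and to NRP2 EIF3J at 0.0120, MSN at 0.0183 and SLC30A1 at 0.0189, with medians of 0.261 and 0.209. CSTF2 encodes a subunit of the cleavage stimulation factor and MSN the membrane linker moesin.

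**Figure D3:**
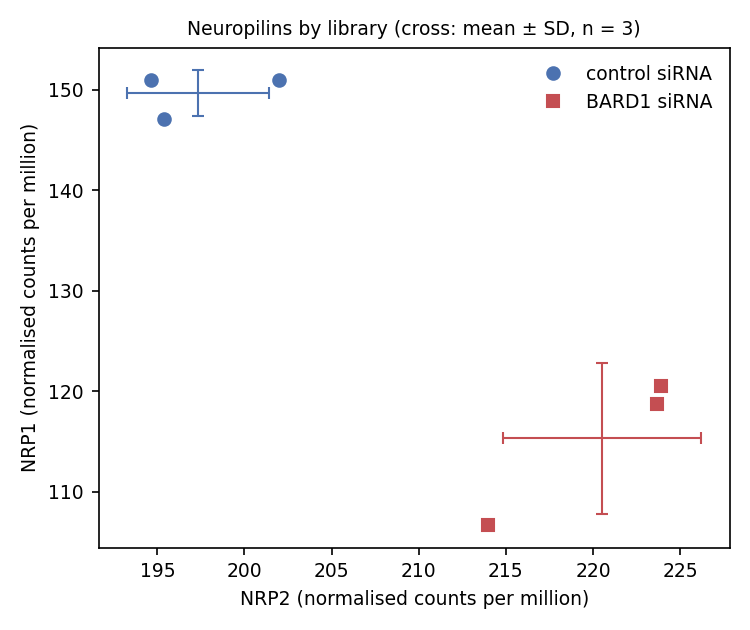
NRP1 against NRP2 in normalised CPM, 1 point per library, with crosses at the mean ± SD of each group (n = 3). The BARD1 siRNA libraries lie below the controls in NRP1, at 107 to 120.5 against 147 to 151, and to their right in NRP2, at 214 to 224 against 195 to 202.

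In order of level per kilobase of the longest coding transcript, control siRNA cells had VEGFB at 33.8, NRP2 at 29.6, NRP1 at 25.4, VEGFA at 25.1, VEGFC at 2.00, FLT4 at 0.747, VEGFD at 0.243, PGF at 0.197 and KDR at 0.103 CPM per kilobase, with FLT1 at 0. NRP1 and VEGFA overlapped over the libraries, as did VEGFD with PGF and PGF with KDR. With BARD1 siRNA the order began with VEGFA at 74.8, VEGFB at 36.6, NRP2 at 33.1 and NRP1 at 19.6, of which VEGFB and NRP2 overlapped. VEGFC at 3.88 and FLT4 at 0.429 followed, and VEGFD, PGF and KDR, all under 0.2, overlapped with each other. By exon union the upper order differed. With control siRNA NRP1, at 12.8 to 13.1 CPM per kilobase, lay above VEGFA, at 5.96 to 6.29. With BARD1 siRNA that order began with VEGFB at 32.7, followed by VEGFA at 18.3, NRP2 at 15.9 and NRP1 at 10.0. By either length the kinase receptors lay under 1 CPM per kilobase in both groups.

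BARD1 siRNA replicate 1 was at the edge of its group for all 7 tested genes: lowest in VEGFA, VEGFC, KDR, NRP1 and NRP2 and highest in VEGFB and FLT4. In a group of 3, all libraries but the middle one are at an edge for any gene. How often this held over all tested genes was not counted. BARD1 siRNA replicate 1 also lay farthest from the others of its group on the second principal component, at −26.6 against 21.5 and 4.86. That component took 10.3% of the variance. Its part in the results is seen in the values given without it. The calls of VEGFA, VEGFC, FLT4, NRP1 and NRP2 all held without it.

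**Figure D4:**
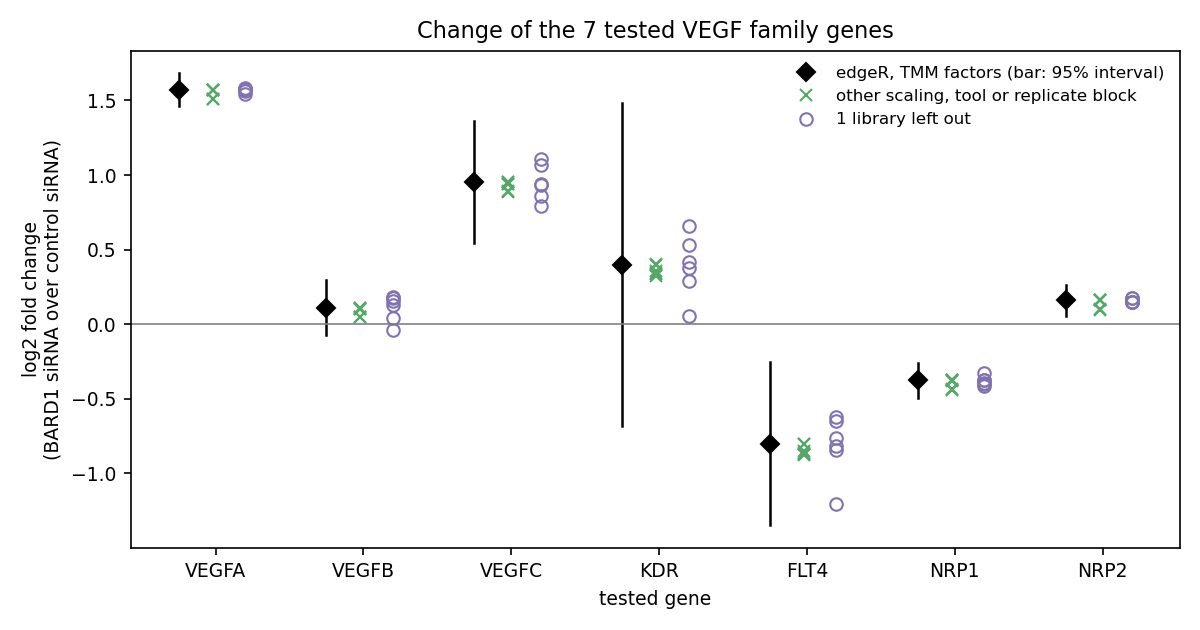
Log2 fold change of the 7 tested genes, BARD1 siRNA over control siRNA: diamonds are the edgeR estimate with its 95% interval, crosses other scaling factors, tools or the replicate block, and open circles the fits with 1 library left out. VEGFA stays at 1.51 to 1.58 in all of them, and FLT4 ranges from −1.21 to −0.62.

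Beyond the family, 6 lists of genes of the VEGF pathway were counted. The background over all tested genes was a median log2 fold change of −0.01 and 42.3% called. Because the lists were chosen with earlier results of these data known, their shares describe the lists and are no test of the pathway. For genes that regulate VEGFA transcription, 12 of 25 tested were higher and 3 lower (median 0.15). JUN, a subunit of AP-1, rose from 176 to 649.9 CPM, and XBP1, a factor of the unfolded protein response, from 52.5 to 189.7 CPM. EPAS1, which encodes hypoxia-inducible factor 2α, rose from 29.2 to 88.0 CPM and FOS from 10.1 to 31.8 CPM. Named after their values were seen, HIF1A rose by 0.34 and ATF4 by 1.22 on the log2 scale. VHL, which targets the HIF subunits for degradation, rose by 0.71. Other HIF genes of the list, likewise named afterwards, were not called: ARNT at −0.06, EGLN2 at −0.05, EGLN3 at 0.27 and HIF1AN at 0.15. The 3 list members called lower were TFAP2A at −0.46, E2F1 at −0.22 and the prolyl hydroxylase EGLN1 at −0.16. With upper-quartile factors 11 were higher and 6 lower.

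Genes of VEGFA mRNA splicing and stability had 4 higher and 6 lower of 19 tested (median −0.09), or 3 and 11 with upper-quartile factors. The members that rose most, ZFP36 and ZFP36L1, encode proteins that bind AU-rich elements like the site printed for VEGFA. ZFP36, tristetraprolin, went from 8.05 to 73.8 CPM, up by 3.20 (log2, SE 0.11). ZFP36L1 went from 355 to 1285 CPM, up by 1.85 (log2, SE 0.05). Other genes of proteins known to bind such elements, named after their values were seen, were not called: the log2 fold change was −0.04 for ZFP36L2, 0.02 for KHSRP and −0.09 for HNRNPD. The splicing kinase gene CLK1 rose by 0.53. The SRSF splicing factor genes of the list, named after their values were seen, went both ways. SRSF5 rose by 0.18, while SRSF2 and SRSF6 fell by 0.29 and 0.23. SRSF1, at −0.11, and SRSF3, at −0.09, were not called. DDX6, a helicase of mRNA decay bodies, fell by 0.44. The stabilising factor ELAVL1, known as HuR and likewise named afterwards, fell by 0.16.

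Genes of ligand processing, release and matrix binding went both ways, with 8 higher and 10 lower of 26 tested (median −0.03). PLAU, the urokinase protease that activates plasminogen, rose from 79.6 to 434 CPM, and PLAT, the tissue activator, by 1.41 on the log2 scale. Plasmin is known to cut matrix-bound VEGFA. SDC4, a heparan sulfate proteoglycan of the cell surface, rose from 263 to 525 CPM. The other SDC genes of the list, named after their values were seen, fell: SDC1 by 0.34, SDC2 by 0.38 and SDC3 by 0.26. Of other proteoglycan genes in the list, likewise named afterwards, GPC1 rose by 0.26 and HSPG2, at −0.05, was not called. THBS1, which encodes a VEGFA-binding inhibitor of angiogenesis, fell from 436 to 126 CPM. Of the genes known to mature VEGFC, named after their values were seen, FURIN rose by 0.45, while PCSK5 and CCBE1 fell by 0.74 and 0.27. ADAMTS3, at 1.14 CPM with control siRNA, had a log2 fold change of 0.04 and was not called. Of the other PCSK genes in the list, also named afterwards, PCSK7 fell by 0.24 (edgeR adjusted p = 0.0495) and PCSK6, at −0.01, was not called.

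Semaphorin and plexin partners of neuropilins had 11 higher and 1 lower of 14 tested (median 0.38), and 8 and 1 with upper-quartile factors. SEMA3B, a secreted ligand of neuropilins, rose from 21.8 to 66.8 CPM, PLXNA2 from 3.23 to 10.0 CPM, PLXNA3 from 32.6 to 55.2 CPM and CRMP1, a mediator of semaphorin signalling, from 6.10 to 12.6 CPM. Also higher, and named afterwards, were SEMA3A, a ligand of NRP1, by 0.56 and SEMA3F, a ligand of NRP2, by 0.32 (log2). The member that fell was DPYSL2, at −0.29.

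Genes of VEGF signal transduction had 24 higher and 8 lower of 49 tested (median 0.18), and 17 and 12 with upper-quartile factors. RCAN1, a calcineurin inhibitor induced by VEGF in endothelium, rose from 38.4 to 74.8 CPM, PIK3CD, a phosphoinositide 3-kinase catalytic subunit, from 20.0 to 40.6 CPM, and the adaptor SHC2 from 5.40 to 8.96 CPM. PIK3R1, the regulatory subunit, fell from 60.9 to 38.3 CPM. Among coreceptors and genes of receptor traffic and attenuation 13 were higher and 6 lower of 26 tested (median 0.13). SPRY4 and SPRY2, feedback inhibitors of receptor tyrosine kinases, rose by 2.57 and 1.63, the adaptor GRB10 by 1.26 and the integrin subunit ITGB3 by 0.93 on the log2 scale. Relatives of the Sprouty genes in the list, named afterwards, did otherwise: SPRY1 fell by 1.11, from 4.15 to 1.92 CPM (edgeR adjusted p = 0.00237), and SPRED1 was not called, at 0.09.

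**Figure D5:**
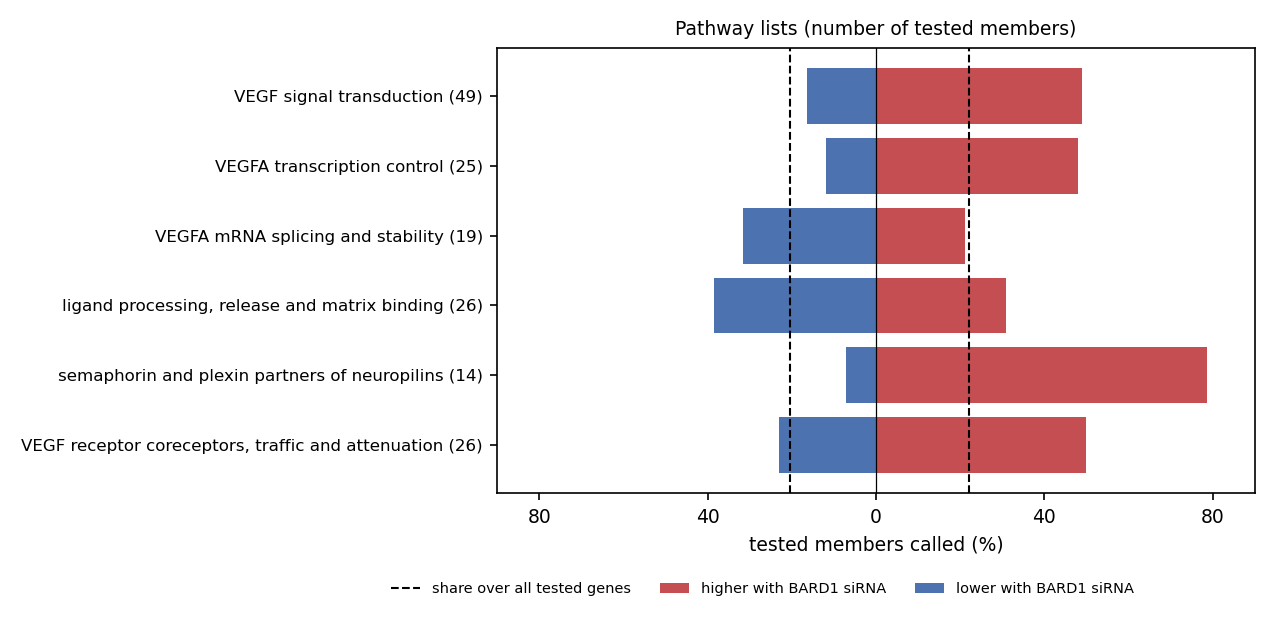
Share of tested members of each pathway list called higher (right) or lower (left) with BARD1 siRNA in percent, with dashed lines at the shares over all tested genes (22% and 20.3%). Semaphorin and plexin partners had the largest share of higher members, 11 of 14, and the splicing and stability list had more lower than higher members. The lists were chosen with earlier results of these data known.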

How the data were processed

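RNA of 3 control siRNA and 3 BARD1 siRNA cultures was sequenced. The deposited table holds unnormalised counts per gene and a gene length, made by the authors. CASAVA, HISAT2 and the build GRCh38 are named per the submitters' processing notes; the counting program, its annotation, its use of strand and all versions were not given in the sources used. Gene identifiers, starts, ends and lengths were matched to GENCODE 29, in which all 58735 identifiers were found and 58724 had the same start and end.

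Counts of 15271 genes that passed filterByExpr (minimum count 10, minimum total 15) were fitted across all genes with edgeR 4.0.16 (R 4.3.3), using TMM factors, the robust quasi-likelihood test and no block, and p-values were adjusted by Benjamini-Hochberg over all of them at a threshold of 0.05. The procedure was tested on simulated data in which only a small part of the genes was changed. Scaling under a change as broad as the one called here was therefore not tested. Levels in CPM (counts-per-million) use TMM-scaled library sizes. A count of 0 allows up to 3 counts, and exact intervals cover counting error only. Shares and ratios were compared by exact two-sided permutation tests. The labels call the libraries biological replicates without saying more, so that p-values cover only how much these cultures of 1 line vary. No pair of libraries agreed within sampling noise.

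The genes of the family and the lists were chosen with earlier results of these data known. Up to 4 called genes per list, those of largest absolute change among genes averaging 2 or more in log2 CPM, were named, and 3 nearest profiles per called family gene (offset 0.01 CPM); exceptions are marked. Alternatives were RLE or upper-quartile factors, library size alone, DESeq2 1.42.0, limma-voom 3.58.1, no robust estimation, other filters, protein-coding genes only, a replicate block and each library left out; the longest coding transcript as length was added after seeing the data. Fibroblast and pericyte markers summed to 29.3 to 29.9 CPM with control siRNA and 18.9 to 25.9 CPM with BARD1 siRNA, with COL3A1 lower, and epithelial markers summed to 5399 to 5712 and 4653 to 4783 CPM. Their part in the results was not tested. A result on the leukocyte markers is not reported here.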

Additional observations from a re-analysis of the deposited data

How the results depend on the processing

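VEGFA, VEGFC and NRP1 kept their direction and call under all 16 alternatives, as did the 24 genes named from the lists by rule. The number of family genes called was 3 to 5 when single libraries were left out, with 3 without BARD1 siRNA replicate 2 or 3, where FLT4 and NRP2 lost their calls. It was 4 with upper-quartile factors or library size alone, without NRP2. VEGFB, which was not called, had log2 fold changes of −0.037 to 0.18 when single libraries were left out, with the change of sign at −0.037, without BARD1 siRNA replicate 1; the cause was not tested. KDR was not tested under a filter of 1 CPM in 3 libraries. The genes called over the whole table ran from 5655 to 6790. With upper-quartile factors 41.5% of called genes were higher, and with library size alone 42.2%, against 51.9% with TMM factors. The gain in VEGFA share of 17.7 percentage points became 23.8 by longest coding transcript, 18.4 without a length, and 16.7 to 19.5 when single libraries were left out.

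Same-numbered libraries of the groups did not deviate together (correlations −0.01, −0.01 and −0.02 of their deviations from the group means), and no library correlated best with its own number, so that the numbers were not taken to pair the cultures. A fit with the replicate block called 5 family genes and 6512 genes in all and changed no call of the family.

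Depth limits VEGFD, PGF, KDR and FLT1 most, since each had fewer than 50 counts per group, and 3 cultures per group of 1 line limit what the p-values cover.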
